A study of Mus musculus with 13 samples.

Results

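RNA-Seq counts of 10 genes that mark fat cells or are secreted by them were compared at P4 between the back skin, taken at full thickness, of WT animals and of animals lacking KCTD1 and KCTD15 in keratinocytes. The genes were *Retn*, *Adipoq*, *Lep*, *Cfd*, *Fabp4*, *Plin1*, *Lpl*, *Car3*, *Cidec* and *Ucp1*, named as adipocyte markers and adipokines rather than picked by a threshold. They were chosen with earlier results of these data known. All 10 were among the 49315 genes of the count files. Of these 10, 9 passed the filter on low counts that left 20168 genes for testing, and *Ucp1* did not. The WT group held 3 mice (WT1 to WT3), and the mutant group held 3 *K14Cre+Kctd1fl/flKctd15fl/fl* mice (DKO1 to DKO3), described as littermates. K14Cre deletes floxed alleles in keratinocytes and other cells that use the *Krt14* promoter and is not aimed at adipocytes. RNA of all cells of the skin, deleted or not, was read together. The sample titles also carry a number that both genotypes share: WT3 and DKO1 carry 40972, and the other 4 mice carry 47347. What that number marks is not stated, and which of the 6 mice shared a litter is not given. Other alleles of the WT mice are not given either.

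Dermal adipocytes form a layer of white fat under the reticular dermis that, in the mouse, thickens after birth while the first hair follicles grow. White adipocytes take up fatty acids that lipoprotein lipase releases from circulating triglyceride, store them in a single droplet coated by perilipin, and secrete hormones termed adipokines. Adiponectin, leptin, resistin and adipsin are the adipokines measured here. Brown adipocytes carry the same lipid machinery and additionally use *Ucp1* to produce heat. Whole skin also contains the thin panniculus carnosus muscle, and *Car3* and *Lpl* are used by skeletal muscle as well as by fat.

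The 6 libraries held between 11263863 and 17643043 counts, the fewest in DKO1. The floor, set at 3 counts, lay between 0.17 and 0.2663 CPM. Counting error was therefore small for the genes tested other than *Retn*, and their precision was set by the 3 mice per group. *Retn* had only 68, 91 and 93 counts in WT1, WT2 and WT3, and *Ucp1* was close to the floor, so counting error also bears on their precision. *Kctd1* had 410.0 to 443.4 normalized counts in WT and 506 to 985 in DKO, and *Kctd15* had 736 to 763 in WT and 1131 to 1509 in DKO. These counts cover whole genes and cannot show the loss of the floxed exons, so they do not check the genotype labels. Markers of keratinocytes, dermal fibroblasts and growing hair follicles were present in all libraries, and none of the listed markers of those types was at 0 throughout. DKO1 stood apart for the adipocyte genes: the 10 genes took 0.312% of its counts, against 0.14% in DKO2 and 0.137% in DKO3, and 0.148%, 0.149% and 0.225% in WT1, WT2 and WT3. Much of each share came from *Car3* and *Lpl*, which muscle also uses. They held 16389 and 7826 of the 35192 counts in DKO1, and 8106 and 6289 of the 21993 in WT1. Values without DKO1 are given beside those results of the 10 genes and of the adipocyte lists whose size or direction rested on it. No fold change without DKO1 is given for single genes of the further lists.

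Promoter sequence was read for the 4 adipokine genes, because their differences between the genotypes, described later, ran in different directions. The table of RefSeq promoters for GRCm38.p6, the build to which the reads were mapped, had entries for 7 of the 10 genes. The 120 bases directly upstream of each transcription start are shown on the coding strand, 5′ to 3′, with matches to 4 short motifs in capitals. *Retn* is taken from chr8:3655650-3655769 (+), *Cfd* from chr10:79890733-79890852 (+), *Lep* from chr6:29060101-29060220 (+) and *Adipoq* from chr16:23146416-23146535 (+).
Retn: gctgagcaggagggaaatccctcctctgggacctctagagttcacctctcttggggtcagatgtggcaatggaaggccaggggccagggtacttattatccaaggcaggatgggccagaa
Cfd: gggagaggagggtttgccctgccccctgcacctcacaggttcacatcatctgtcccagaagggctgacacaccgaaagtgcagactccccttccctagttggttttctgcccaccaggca
Lep: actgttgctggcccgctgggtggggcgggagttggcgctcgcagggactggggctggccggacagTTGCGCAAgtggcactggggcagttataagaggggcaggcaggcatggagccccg
Adipoq: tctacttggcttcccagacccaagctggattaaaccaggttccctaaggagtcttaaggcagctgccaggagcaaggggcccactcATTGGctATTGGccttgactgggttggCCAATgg
The motifs searched on both strands, over 250 bases before to 50 after the start, were CCAAT, the C/EBP palindrome TTGCGCAA, the nuclear receptor half-site AGGTCA and TATAAA. They were found in 37.4%, 0.183%, 16.3% and 13.6% of all 32851 promoter windows of the same 300 bases. The *Lep* window held the C/EBP palindrome, starting 55 bases before the transcription start, which only 60 of the windows contain. The *Adipoq* window held CCAAT in either orientation at 34, 27 and 7 bases before the start. Of these 4 motifs, none was in the *Retn*, *Cfd*, *Plin1* or *Cidec* windows, and the *Ucp1* window held AGGTCA 14 bases before its start. Whether any motif bears on the differences between the genotypes was not tested.

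Between the genotypes, *Retn* and *Cfd* had higher counts in DKO, *Lep* had lower counts, and the differences of the other 6 genes tested were at most a little over their standard errors. None of the 9 genes was called, that is, none combined an adjusted p-value under 0.05 with an absolute log2 fold change over 1 in the quasi-likelihood test of edgeR, adjusted by Benjamini-Hochberg over all genes. By that rule 14 of 20168 genes were called, or 0.0694%. At an unadjusted p under 0.05 there were 2 of the 9, *Retn* and *Cfd*, where 7.5% of all genes tested had such a p. With the shared number as a replicate block *Lep* joined them, with an unadjusted edgeR p of 0.00123 and an adjusted p-value of 0.136, and again none was called. DESeq2 called the same 2 of the 9, both higher, where it called 152 of 18389 genes, or 0.827%, and 0.522% in the higher direction. The log2 fold change was above 0 for 6 of the 9 and below 0 for 3, with a median of 0.23, while 52.9% of all genes tested were above 0 and their median was 0.02. Without DKO1 the split was 2 above and 7 below and the median was -0.29, so the direction of the group as a whole rested on that library. Because whole skin was measured, fewer fat cells cannot be told apart from less RNA of a gene per fat cell.

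**Figure D1:**
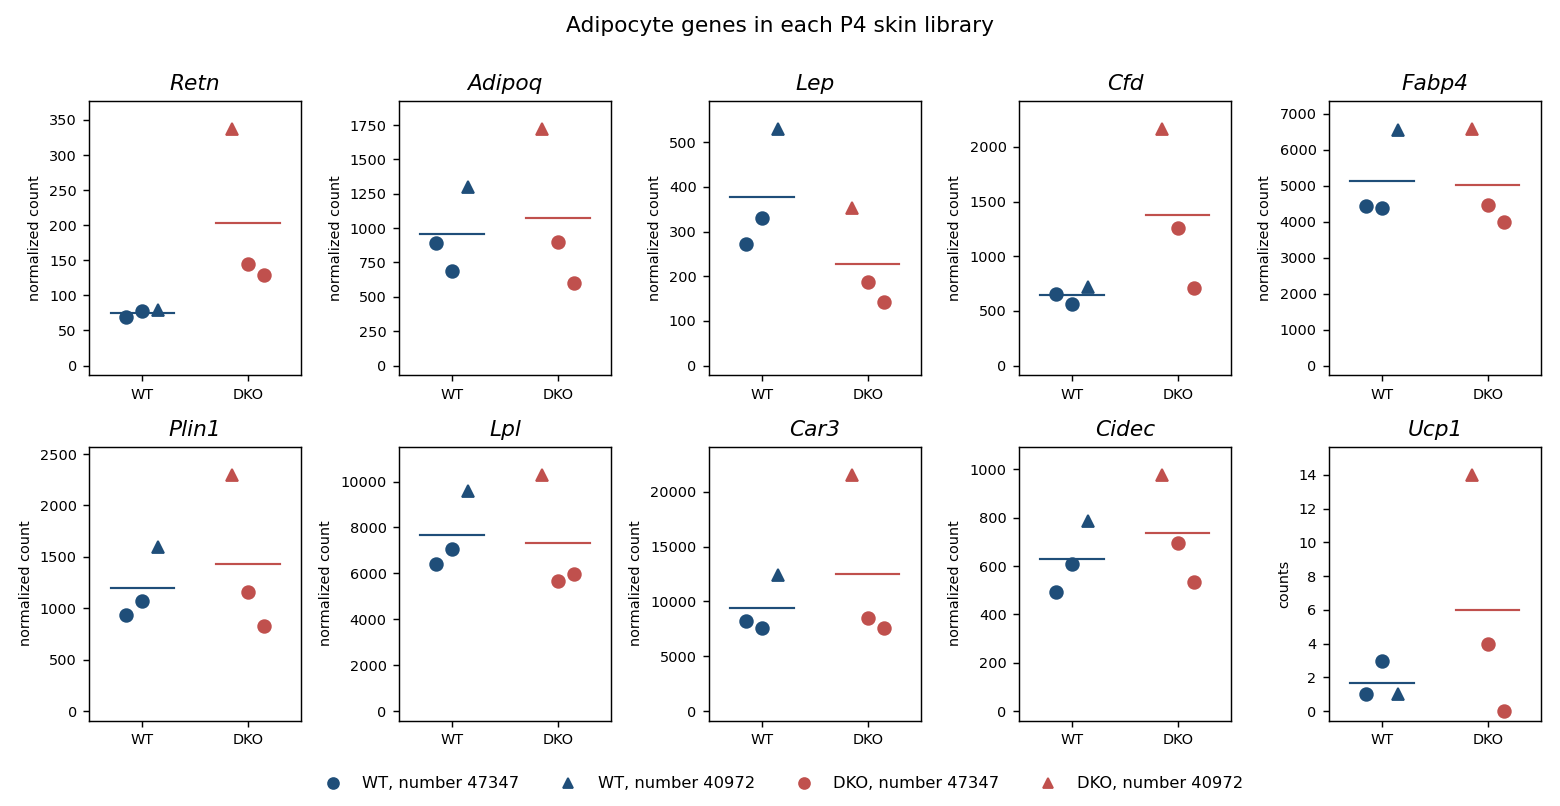
Normalized counts of the 10 genes in each P4 library (counts for *Ucp1*), on linear axes that differ between genes, with WT in blue, DKO in red, triangles for the mice numbered 40972, circles for those numbered 47347, and a line at each group mean. DKO1 is the highest DKO library for every gene, and *Retn* is the only gene whose 2 groups do not overlap.

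*Retn* encodes resistin, a secreted protein that in mice is made almost only by adipocytes (ENSMUSG00000012705, chr8:3655770-3660110, plus strand). Its normalized counts were 69.3, 77.2 and 79.6 in WT1, WT2 and WT3 and 336.5, 144.5 and 128.4 in DKO1, DKO2 and DKO3. The lowest DKO library was therefore above the highest WT library, which was the case, in that direction, for 7.24% of all genes tested. The group means were 75.4 ± 5.38 in WT and 203.1 ± 115.8 in DKO (SD, n = 3 each). The log2 fold change was 1.42 ± 0.350 (SE) and a 95% interval of 0.63 to 2.20, and the edgeR adjusted p-value was 0.281. With DESeq2 the log2 fold change was 1.41 and the adjusted p-value 0.00843, and with edgeR on genes unfiltered for low counts, where 0.624% of genes were called, they were 1.40 and 0.00157, so that the call depended on the tool and the filter. Within the 40972 pair the log2 ratio of DKO to WT was 2.08, and among the 4 mice numbered 47347 it was 0.88. *Retn* was thus higher in DKO within both numbers, by less where DKO1 was left out: without that library the value was 0.84, with an edgeR adjusted p-value of 0.27. The related genes *Retnla*, *Retnlb* and *Retnlg* had far fewer counts: *Retnla* had 9 to 40 counts in WT and 2 to 21 in DKO, with a log2 fold change of -0.85 and an edgeR adjusted p-value of 0.905.

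*Cfd* encodes adipsin, or complement factor D, a serine protease of the alternative complement pathway that fat secretes in large amounts (ENSMUSG00000061780, chr10:79890853-79892656, plus strand). Normalized counts were 652.3, 565.3 and 723.0 in WT1, WT2 and WT3, and 2160, 1259 and 713.7 in DKO1, DKO2 and DKO3. DKO3 lay inside the WT range and the other 2 DKO libraries above it. The means were 646.9 ± 79.0 in WT and 1377 ± 730 in DKO (SD, n = 3 each). The log2 fold change was 1.09 ± 0.326 (SE) and a 95% interval of 0.36 to 1.82, and the edgeR adjusted p-value was 0.379. DESeq2 gave 1.07 with an adjusted p-value of 0.0401, and edgeR with no filter on low counts gave 1.07 with 0.00273. The log2 ratio was 1.58 within the 40972 pair and 0.67 among the mice numbered 47347. Without DKO1 the log2 fold change was 0.59, with an edgeR adjusted p-value of 0.51.

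*Lep* encodes leptin, the hormone that reports fat stores to the hypothalamus (ENSMUSG00000059201, chr6:29060220-29073877, plus strand). It had 273.1, 330.2 and 528.7 normalized counts in WT1, WT2 and WT3 and 353.6, 186.4 and 143.3 in DKO1, DKO2 and DKO3. DKO2 and DKO3 were below all WT libraries, and DKO1 lay between WT2 and WT3. The means were 377.4 ± 134.2 in WT and 227.8 ± 111.1 in DKO (SD, n = 3 each). The log2 fold change was -0.74 ± 0.342 (SE) and a 95% interval of -1.50 to 0.03, and the edgeR adjusted p-value was 0.685. It was the only secreted protein of the 4 with a negative value. The log2 ratio was -0.58 within the 40972 pair and -0.89 among the mice numbered 47347. Without DKO1 it was -1.21, with an edgeR adjusted p-value of 0.132, so that this library worked against the difference here and with it for *Retn* and *Cfd*.

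*Adipoq* encodes adiponectin, the most widely used marker of differentiated adipocytes (ENSMUSG00000022878, chr16:23146536-23158028, plus strand). Normalized counts were 891.8, 687.5 and 1297 in WT1, WT2 and WT3, and 1718, 895.7 and 599.3 in DKO1, DKO2 and DKO3. DKO held both the highest and the lowest library. The log2 fold change was 0.16 ± 0.354 (SE), a 95% interval of -0.64 to 0.95 and an edgeR adjusted p-value of 0.967. Its sign was opposite among the mice numbered 47347, at -0.10, and without DKO1, at -0.38.

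Of the genes for fatty acid supply, neither showed a difference larger than its error. *Lpl*, the lipase that is anchored in capillaries and splits circulating triglyceride (ENSMUSG00000015568, chr8:68880491-68907448, plus strand), had 6410, 7045 and 9598 normalized counts in WT1, WT2 and WT3. In DKO1, DKO2 and DKO3 it had 10288, 5688 and 5984. The *Lpl* log2 fold change was -0.07 with a 95% interval of -0.61 to 0.47 and an edgeR adjusted p-value of 0.977, and it was -0.41 without DKO1. *Fabp4*, the fatty acid carrier of the adipocyte cytoplasm (ENSMUSG00000062515, chr3:10204088-10208576, minus strand), had 4433, 4380 and 6561 normalized counts in WT1, WT2 and WT3. It had 6570, 4467 and 3995 in DKO1, DKO2 and DKO3, and the values of the genotypes were nearly matched within each number. The *Fabp4* log2 fold change was -0.03 with a 95% interval of -0.52 to 0.46 and an edgeR adjusted p-value of 0.986, and it was -0.29 without DKO1.

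Neither droplet gene differed by more than its error. *Plin1*, whose product coats the droplet and gates lipolysis (ENSMUSG00000030546, chr7:79720218-79732903, minus strand), had 932.6, 1074 and 1597 normalized counts in WT1, WT2 and WT3. The *Plin1* values in DKO1, DKO2 and DKO3 were 2296, 1160 and 827.2, again with the highest and the lowest library in DKO. The *Plin1* log2 fold change was 0.25 with a 95% interval of -0.51 to 1.01 and an edgeR adjusted p-value of 0.946, and it was -0.04 among the mice numbered 47347 and -0.29 without DKO1. *Cidec*, which fuses small droplets into the single large one of white adipocytes (ENSMUSG00000030278, chr6:113424634-113435760, minus strand), had 491.3, 607.7 and 785.4 normalized counts in WT1, WT2 and WT3. In DKO1, DKO2 and DKO3 it had 976.7, 696.0 and 534.6. The *Cidec* log2 fold change was 0.23 with a 95% interval of -0.31 to 0.76 and an edgeR adjusted p-value of 0.934, and it was -0.05 without DKO1.

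*Car3* encodes carbonic anhydrase III, an abundant cytoplasmic protein of adipocytes and slow skeletal muscle (ENSMUSG00000027559, chr3:14863512-14872523, plus strand). It had 8262, 7611 and 12439 normalized counts in WT1, WT2 and WT3, and 21544, 8510 and 7591 in DKO1, DKO2 and DKO3. DKO1 was far above all others, and the remaining DKO libraries were close to WT1 and WT2. The log2 fold change was 0.41 ± 0.369 (SE), a 95% interval of -0.41 to 1.24 and an edgeR adjusted p-value of 0.917. Among the mice numbered 47347 it was 0.00, and without DKO1 it was -0.24.

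*Ucp1*, the uncoupling protein of brown fat (ENSMUSG00000031710, chr8:83290352-83298452, plus strand), was close to the floor. It had 1, 3 and 1 counts in WT1, WT2 and WT3 and 14, 4 and 0 in DKO1, DKO2 and DKO3. Over all libraries there were 18 counts in DKO and 5 in WT, a DKO to WT ratio, corrected for library size, of 4.36 with a 95% counting interval of 1.56 to 15. That interval covers counting error only. Without DKO1 there were 4 counts against 5 and the ratio was 1.33, with an interval of 0.264 to 6.19, so no difference was detectable at this depth in the remaining libraries. *Ucp2*, a paralog found in many cell types, had 4035 to 11028 counts per library, and *Ucp3*, the skeletal muscle paralog, had 56 to 108.

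**Figure D2:**
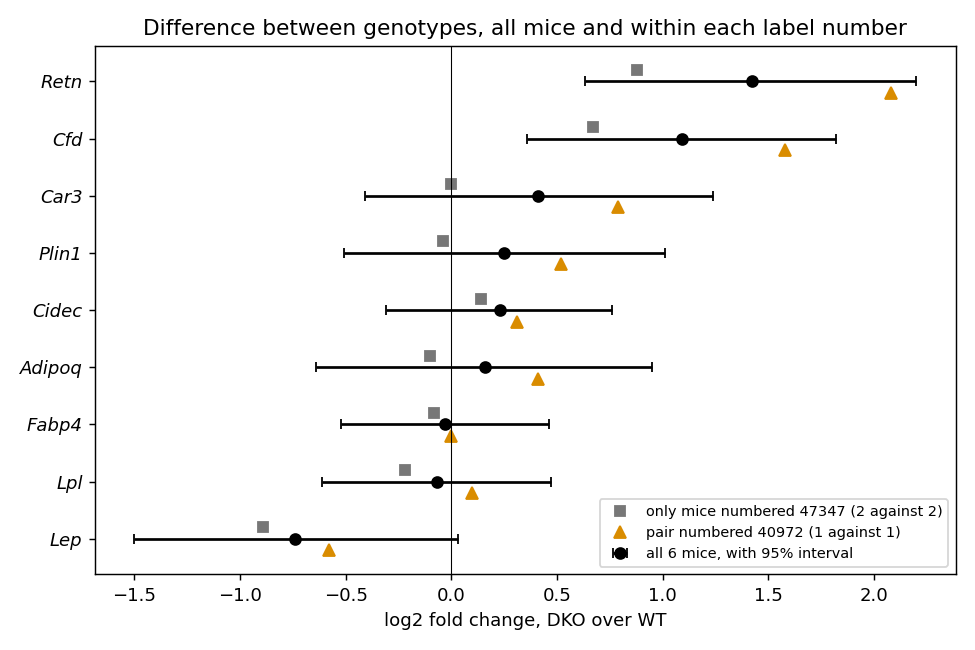
Log2 fold changes of the 9 genes tested (DKO over WT, x axis), ordered by size, with black points and 95% intervals for all 6 mice, grey squares for the 4 mice numbered 47347 and orange triangles for the single pair numbered 40972. *Retn*, *Cfd* and *Lep* keep their direction in both subsets, at 2.08 and 0.88, 1.58 and 0.67, and -0.58 and -0.89, while *Adipoq*, *Plin1* and *Lpl* change sign between them.

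The number in the titles accompanied the level of nearly all of these genes. In all 9 genes tested, both mice numbered 40972 were the highest library of their own genotype, WT3 among the WT mice and DKO1 among the DKO mice. Over all genes tested, 16.9% showed that pattern. The 9 genes mark mainly 1 cell type in the same 6 libraries, so they are not 9 separate observations. That share is therefore no base rate for them. Within WT, the summed level of the 10 genes was 1270 and 1257 TPM (a level scaled to gene length and library size) in WT1 and WT2 and 1893 in WT3. Within DKO it was 3286 TPM in DKO1, of which *Car3* held 1658.5, against 1268 in DKO2 and 1225 in DKO3, with 516 and 549 from *Car3*. Among the mice numbered 47347 the 2 genotypes therefore covered almost the same summed level. With 1 mouse of each genotype, the 40972 pair allows no test of its own.

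Set against *Adipoq* in the same library, a comparison chosen after the values were seen, *Retn*, *Cfd* and *Lep* had groups that did not overlap. *Retn* had 0.0777, 0.112 and 0.0613 counts per *Adipoq* count in WT1, WT2 and WT3 and 0.196, 0.161 and 0.214 in DKO1, DKO2 and DKO3. All DKO libraries were above all WT libraries, with a mean log2 ratio of 1.22 between the genotypes, 1.67 within the 40972 pair and 0.99 among the mice numbered 47347. *Cfd* had 0.731, 0.822 and 0.557 counts per *Adipoq* count in WT1, WT2 and WT3 and 1.26, 1.41 and 1.19 in DKO1, DKO2 and DKO3. Again the groups did not overlap, with a log2 ratio of 0.88, and 1.17 and 0.74 within the numbers 40972 and 47347. *Lep* had 0.306, 0.480 and 0.408 counts per *Adipoq* count in WT1, WT2 and WT3 and 0.206, 0.208 and 0.239 in DKO1, DKO2 and DKO3. Here all DKO libraries were below all WT libraries, with a log2 ratio of -0.85, and -0.99 and -0.78 within the same numbers. DKO1, which stood apart in level, lay between DKO2 and DKO3 in the first 2 of these ratios and beside DKO2 in the third.

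Relative to *Adipoq*, the groups of *Fabp4*, *Plin1*, *Lpl*, *Car3* and *Cidec* overlapped, with log2 ratios from -0.17 for *Lpl* to 0.21 for *Car3*. *Plin1*, at 1.28 ± 0.261 per *Adipoq* count in WT and 1.34 ± 0.0424 in DKO (SD, n = 3 each), was closest between the genotypes. A 2-sided exact permutation test with 3 mice per group cannot give a p below 0.1, which was the value for *Retn*, *Cfd* and *Lep*. Of all other genes tested, 2.23% had groups that did not overlap relative to *Adipoq*, 1.5% being higher and 0.729% lower. Before that division 13.2% of genes tested did not overlap. The share covers all genes, whether or not they vary with *Adipoq*, so it is no base rate for genes that do. Dividing by *Plin1* in place of *Adipoq* separated the same 3 genes, with log2 ratios of 1.14 for *Retn*, 0.80 for *Cfd* and -0.93 for *Lep*. Dividing by *Cidec* gave 1.08, 0.74 and -0.99 for them and additionally placed *Lpl* lower, at -0.31. No share over all genes is given for *Plin1* or *Cidec* as the reference. The 3 references are themselves among the 10 genes, so a shared shift in the references would appear in each ratio.

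**Figure D3:**
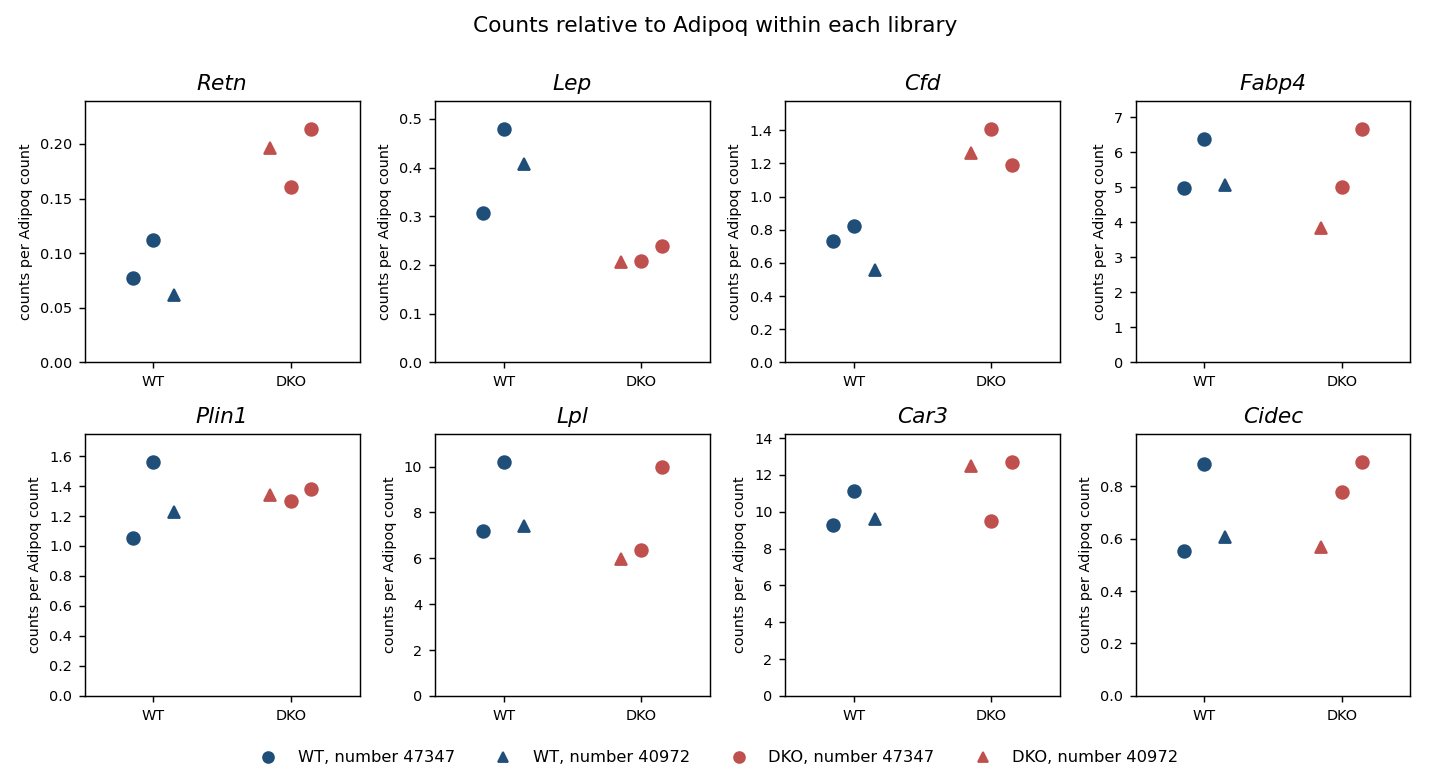
Counts of 8 genes per *Adipoq* count in each library (linear axes from 0), with colours and symbols as in the plot of normalized counts. The DKO points of *Retn* and *Cfd* all lie above the WT points and those of *Lep* all lie below, while the other 5 genes overlap.

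Per length, the genes spanned a wide range of levels. In WT, *Car3* was highest at 663 ± 182 TPM, followed by *Fabp4* at 230 ± 55.5 TPM (SD, n = 3 for each). The length used for *Fabp4*, 4489 bases, equals the full span of the gene in the annotation. Its TPM, and its place in the order of either genotype, rest on that length and may be too low. *Lpl* at 148 ± 32.7, *Cfd* at 141 ± 15.9 and *Adipoq* at 140 ± 44.5 TPM could not be ordered beyond their spread. Nor could *Cidec* at 68.2 ± 16.4 and *Plin1* at 52.0 ± 15.2 TPM, although *Cidec* was the higher of the pair in all 6 libraries. *Lep* stood at 22.7 ± 8.08, *Retn* at 9.62 ± 0.816 and *Ucp1* at 0.183 ± 0.119 TPM. In DKO the order of the means was different. *Cfd*, at 304 ± 187 TPM, had the second highest mean of the 10 genes, although *Fabp4* was above it in DKO3, at 184 against 160 TPM. *Retn*, at 26.6 ± 17.7 TPM, had a higher mean than *Lep*, at 13.9 ± 8.09 TPM. *Lep* was above *Retn* in each WT library and below it in each DKO library, at 23.3 against 47 TPM in DKO1, 9.66 against 15.9 in DKO2 and 8.86 against 16.9 in DKO3.

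The 8 further lists of adipocyte genes, described by counts and medians only, held 106 genes that could be tested. Together with the 9 genes above they made 115, of which edgeR called 0. At an unadjusted p under 0.05 there were 26, beside 7.5% of all genes tested. The genes and lists were chosen with earlier results of these data known, so the shares over all genes are no base rate for them. DESeq2 called 7, beside 0.827% of all genes: *Cfd*, *Cpt1b*, *Dlk1*, *Elovl3*, *Fabp3*, *Gdf10* and *Retn*. Of the 115, 79 had log2 fold changes above 0 and 36 below, with a median of 0.14, beside 52.9% above 0 and a median of 0.02 over all genes. Without DKO1 the split was 57 above and 58 below, so the excess of positive values rested on that library.

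The transcription factors of adipocyte differentiation were all slightly above 0 on the log2 scale, 14 of 14, with a median log2 fold change of 0.23 and 0 of 14 at an unadjusted p under 0.05. *Cebpd*, an early C/EBP factor, had 108 to 174 normalized counts in WT and 184 to 186 in DKO, a log2 fold change of 0.39 with an edgeR adjusted p-value of 0.76. *Ebf1*, which acts early in the adipocyte lineage, had a log2 fold change of 0.36, and *Mlxipl*, the carbohydrate response factor ChREBP, had 0.54. *Pparg*, the nuclear receptor required for fat cell differentiation, was outside the rule for named genes and is given for reference: its log2 fold change was 0.11 with an edgeR adjusted p-value of 0.966. Without DKO1, 10 of these 14 factors were above 0, and their median was 0.14. Several of them, *Klf5*, *Rxra* and *Cebpb* among them, are also made by keratinocytes.

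The partners of LPL and of fatty acid uptake were above 0 in 8 of 11 genes, with a median log2 fold change of 0.19 that was -0.08 without DKO1. *Slc27a1*, a fatty acid transporter of fat and muscle, had 1181 to 1338 normalized counts in WT and 1372 to 2201 in DKO, without overlap, and a log2 fold change of 0.55 (edgeR adjusted p = 0.426). *Fabp5*, the epidermal fatty acid binding protein and a close paralog of *Fabp4*, had 3041 to 3549 in WT and 2318 to 2562 in DKO, also without overlap. Its log2 fold change was -0.47 ± 0.120 (SE) and an edgeR adjusted p-value of 0.298, in contrast to -0.03 for *Fabp4*. *Cd36*, the fatty acid receptor of the plasma membrane and the most abundant of the list per length, had a log2 fold change of -0.14. *Acsl1*, which activates fatty acids with coenzyme A, had 0.21. *Angptl4*, the secreted inhibitor of LPL, had 0.48 with an edgeR adjusted p-value of 0.764.

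Among the enzymes of triglyceride synthesis 5 of 12 were above 0, and the median log2 fold change was -0.02, or -0.12 without DKO1. *Dgat2*, which catalyses the last step, had 1718 to 2000 normalized counts in WT and 1405 to 1621 in DKO, a log2 fold change of -0.31 (edgeR adjusted p = 0.582). *Gk*, glycerol kinase, had -0.47, and *Pck1*, the enzyme of glyceroneogenesis, had 0.38. *Gpd1*, the source of glycerol 3-phosphate in fat, had 0.14, and *Gpam*, the acyltransferase of the first step, had -0.03. Neither *Gk* nor *Pck1* passed an unadjusted p of 0.05. *Dgat2* is made by sebaceous glands as well as by fat.

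For the coat of the droplet and lipolysis, 11 of 16 genes were above 0 and the median log2 fold change was 0.05, and without DKO1 9 of 16 were above 0. *Cav1* and *Cavin1*, which form the caveolae that are dense in adipocytes and endothelium, were the most abundant per length and had log2 fold changes of 0.05 and 0.22. *Pnpla2*, the adipose triglyceride lipase, had 1307, 1321 and 1463 normalized counts in WT1, WT2 and WT3 and 2796, 2312 and 1340 in DKO1, DKO2 and DKO3. DKO3 was inside the WT range, and the *Pnpla2* log2 fold change was 0.66 with an edgeR adjusted p-value of 0.489. *Plin5*, the perilipin of oxidative tissues such as muscle, had 1.15 (edgeR adjusted p = 0.522) and *Fitm1*, a droplet-forming protein of muscle, had 1.18 (edgeR adjusted p = 0.417), both without overlap between the groups. Both were highest in DKO1: in DKO1, DKO2 and DKO3, *Plin5* had 53.9, 24.3 and 26.9 normalized counts and *Fitm1* had 188.0, 98.2 and 68.7. *Plin2*, the perilipin found in most cells that store lipid, had -0.49 with an edgeR adjusted p-value of 0.637. The perilipins thus ranged from -0.49 to 1.15 around the *Plin1* value of 0.25.

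Of the other secreted factors 6 of 11 were above 0, with a median log2 fold change of 0.01. Without DKO1 it was 3 of 11, with a median of -0.11. *Agt*, angiotensinogen, which fat cells and fibroblasts secrete, had 196.7, 186.7 and 236.1 normalized counts in WT1, WT2 and WT3 and 499.5, 356.3 and 264.8 in DKO1, DKO2 and DKO3. The *Agt* groups did not overlap, and the log2 fold change was 0.85 with an edgeR adjusted p-value of 0.333. *Nampt*, or visfatin, had a log2 fold change of -0.21, and *Metrnl*, or meteorin-like, had -0.30. None of the list was called by DESeq2.

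The receptors of adipocytes and of adipokines were above 0 in 11 of 14 genes, with a median log2 fold change of 0.18. Without DKO1 it was 9 of 14, with a median of 0.13. *Npr3*, the clearance receptor for natriuretic peptides, which limits lipolysis in fat, had the smallest p of the 115 genes. Its normalized counts were 472.9, 581.4 and 574.9 in WT1, WT2 and WT3 and 324.7, 316.6 and 274.7 in DKO1, DKO2 and DKO3, without overlap. The *Npr3* log2 fold change was -0.83 ± 0.151 (SE) and an edgeR adjusted p-value of 0.135. DESeq2 gave an adjusted p-value of 0.00144, but the size stayed under the log2 fold change of 1 that a call required. *Cdh13*, which binds adiponectin and is abundant on vessels, had 0.51 with an edgeR adjusted p-value of 0.4. The adiponectin receptors *Adipor1* and *Adipor2* had 0.10 and -0.01, the insulin receptor gene *Insr* had 0.23, and the leptin receptor gene *Lepr* had 0.27 (edgeR adjusted p = 0.893).

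The brown fat and thermogenesis list was divided, with 8 of 15 genes above 0, a median log2 fold change of 0.05, and both the most positive and the most negative values of all 8 lists. Without DKO1 it was 6 of 15, with a median of -0.24. *Fabp3* (1.54), *Cox8b* (1.48) and *Cpt1b* (1.15) were higher in DKO without overlap, with edgeR adjusted p-values of 0.342, 0.335 and 0.281. In DKO1, DKO2 and DKO3, *Fabp3* had 381.2, 126.8 and 120.4 normalized counts, *Cox8b* 106.5, 82.7 and 36.8, and *Cpt1b* 185.3, 102.6 and 102.5. DKO1 was thus the highest library for all 3. These 3 genes are also used by skeletal muscle. *Elovl3* (-1.06), an elongase of very long fatty acids that sebaceous glands also make, had 528.8 to 642.5 normalized counts in WT and 182.7 to 383.9 in DKO and an edgeR adjusted p-value of 0.235. *Dio2*, the deiodinase that activates thyroid hormone in brown fat, had a log2 fold change of -1.10 (edgeR adjusted p = 0.412), and *Cidea*, which brown fat and sebaceous glands share, had -0.57 (edgeR adjusted p = 0.774). *Lhx8*, *Slc27a2* and *Otop1* did not pass the filter on low counts, as was the case for *Ucp1*.

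The markers of adipocyte precursors and related mesenchymal cells had the highest median of the 8 lists, 0.38, with 10 of 13 above 0. Of these 13, 6 had an unadjusted p under 0.05 with higher counts in DKO, which 4.96% of all genes tested had. This list, too, was chosen with earlier results known. *Dlk1*, or preadipocyte factor 1, a membrane protein of fat precursors that is also made by developing muscle, had 825.6, 829.3 and 900.9 normalized counts in WT1, WT2 and WT3. Its DKO1, DKO2 and DKO3 values were 2736, 1820 and 1244, all above WT. The *Dlk1* log2 fold change was 1.18 ± 0.243 (SE), an edgeR adjusted p-value of 0.204 and a DESeq2 adjusted p-value of 0.000868. *Gdf10*, a BMP family ligand that fat precursors secrete, had 64.2, 40.7 and 58.2 normalized counts in WT1, WT2 and WT3 and 110.4, 139.0 and 112.5 in DKO1, DKO2 and DKO3. Its log2 fold change was 1.15, with an edgeR adjusted p-value of 0.204 and a DESeq2 adjusted p-value of 0.0131, and DKO1 was not the highest library. *Pdgfra* and *Pdgfrb*, receptors of mesenchymal cells, had 0.43 and 0.38, both without overlap, with edgeR adjusted p-values of 0.528 and 0.51. *Ly6a* and *Cd24a*, surface proteins used to sort precursors and also present on other skin cells, had 0.55 and 0.08. Without DKO1 the median of the list was 0.18, with 8 of 13 above 0 and 5 at an unadjusted p under 0.05. Dermal fibroblast markers, a separate list, had a median of 0.35 with 10 of 10 above 0, and a median of 0.16 without DKO1.

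**Figure D4:**
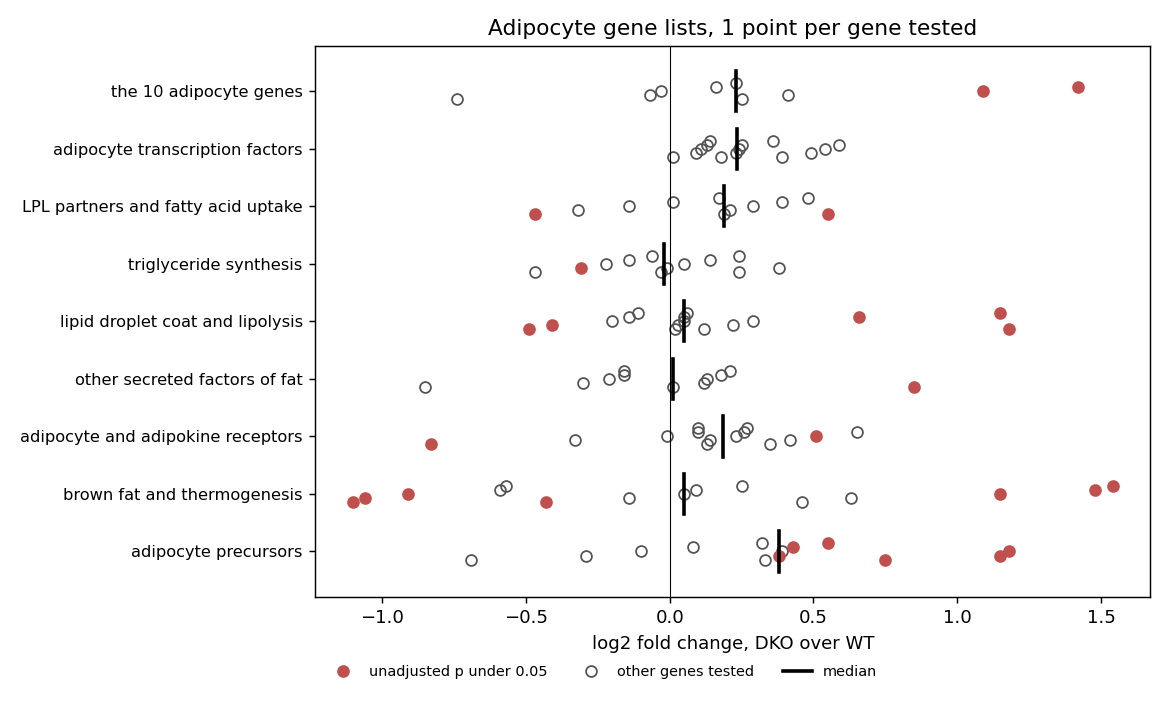
Log2 fold changes (DKO over WT, x axis) of every gene tested in the 10 adipocyte genes and the 8 further lists, with filled red points for an unadjusted p under 0.05, open points for the rest and a black bar at each median. The medians lie between -0.02 and 0.38, and the brown fat list has the widest spread, from -1.10 to 1.54.

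Markers of other cell types also differed between the genotypes. The 22 skeletal muscle markers summed to 2697, 2454 and 2625 TPM in WT1, WT2 and WT3 and to 8629, 3950 and 4146 TPM in DKO1, DKO2 and DKO3. They were higher in 20 of the 21 that could be tested, with a median log2 fold change of 1.05. For 16 of the 21 all DKO libraries were above all WT libraries, which was the case for 7.24% of all genes tested. Without DKO1 the muscle median was 0.54. DKO1 thus had the highest summed level of both the muscle markers and the adipocyte genes, and WT3, high for the adipocyte genes, was not high for muscle. With library sizes computed without the muscle markers, the log2 fold change was 1.41 for *Retn*, 1.08 for *Cfd* and -0.75 for *Lep*. That changes the scaling alone, and the part of muscle in the counts of *Car3*, *Lpl*, *Fabp3*, *Cpt1b*, *Cox8b*, *Plin5*, *Fitm1* and *Dlk1* was not tested.

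Sebaceous gland markers summed to 2183 to 2593 TPM in WT and 1091 to 1515 TPM in DKO, with 13 of 14 lower and a median log2 fold change of -0.98, which was -0.80 without DKO1. Hair follicle markers summed to 14985 to 16812 TPM in WT and 6558 to 13028 TPM in DKO, with 12 of 13 lower and a median of -0.33. Without DKO1, 8 of the 13 were lower and the median was -0.06. The part of those lower levels in *Elovl3*, *Cidea*, *Dgat2*, *Plin2* and *Fabp5* was not tested. Summed markers of endothelium, macrophages, red blood cells and dermal fibroblasts overlapped between the genotypes. Gene by gene, 10 of 12, 10 of 11, 2 of 7 and 10 of 10 of them were above 0, with medians of 0.22, 0.30, -0.19 and 0.35. The keratinocyte sum was higher in DKO (9664 to 10433 TPM in WT and 12171 to 13483 in DKO), but its genes were divided. Of 12, 9 were above 0, with a median log2 fold change of 0.18. Without overlap, 3 were higher, *Krt1* (0.79) and *Krt10* (0.48) among them, and 2 were lower, such as *Krt15* (-0.60). Of all genes tested, 13.2% had groups that did not overlap. The endothelial markers, at 235 to 252 TPM in WT and 223 to 327 TPM in DKO, were highest in DKO1, as were the adipocyte genes. So were the summed markers of macrophages, at 324.4 TPM, and of dermal fibroblasts, at 10231 TPM. Those of sebaceous glands (1091 TPM) and hair follicles (6558 TPM) were lowest in DKO1. No marker of any of these 8 lists was at 0 in all libraries.

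**Figure D5:**
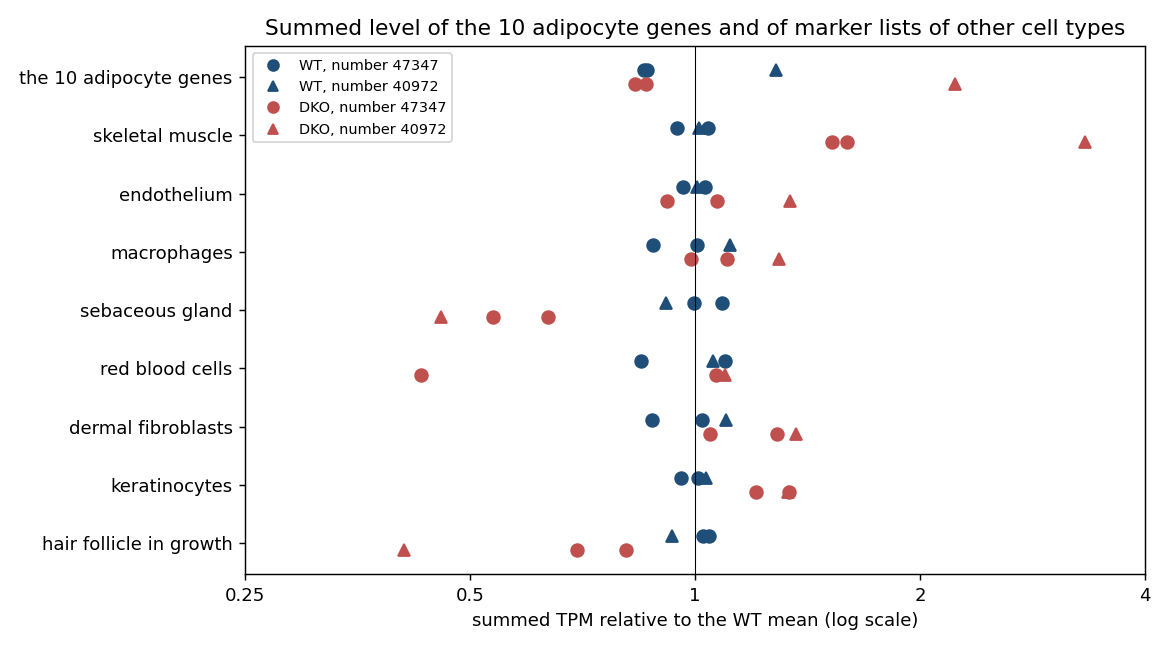
Summed TPM of the 10 adipocyte genes and of 8 marker lists in each library, relative to the WT mean of the same list (log axis), with colours and symbols as in the plot of normalized counts. DKO1 lies highest for the adipocyte genes and for muscle, and also for endothelium, macrophages and dermal fibroblasts. The other DKO libraries lie at the WT level for the adipocyte genes, and sebaceous gland and hair follicle markers lie below WT in all DKO libraries.

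Genes whose pattern over the 6 libraries was closest to that of a given adipocyte gene were found by the root mean square difference of log2 CPM, each gene centred on its own mean. For *Adipoq* they were *F630028O10Rik* (0.109), *Sctr*, the secretin receptor gene (0.140), and *Gm45434* (0.145). For *Car3* they were *Cdo1*, cysteine dioxygenase (0.0891), *Sctr* (0.0997) and *F630028O10Rik* (0.112), so that both adipocyte genes shared 2 of 3 neighbours. For *Retn* they were *Fbxo40*, an F-box protein of skeletal muscle (0.0772), *Tmem233* (0.0885) and *Igf2*, insulin-like growth factor 2 (0.107). *Igf2* had 11287, 11074 and 12910 normalized counts in WT1, WT2 and WT3 and 43469, 22205 and 18663 in DKO1, DKO2 and DKO3, with a log2 fold change of 1.26 and an edgeR adjusted p-value of 0.235. The 10 adipocyte genes were left out of the search, and likeness over 6 libraries is given as a description.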

How the data were processed

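The series has 13 RNA-Seq libraries, of which the 6 from P4 skin were analysed. All 49315 genes are at 0 in the 7 epidermis libraries, which were not analysed. The authors depleted rRNA, trimmed paired-end reads (Trimmomatic 0.36), aligned them to GRCm38 (STAR 2.5.2b) and assigned them to genes (featureCounts, Subread 1.5.2), and the deposited values are whole-number counts without normalization. The tool versions are from the submitters' processing notes. The strand setting of the counting is not given in the sources used here. None of the 10 genes overlaps another gene in the files. Symbols were found for 48970 gene identifiers (99.3%).

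The main test used edgeR 4.0.16 under R 4.3.3 (filterByExpr, TMM, quasi-likelihood F test, adjustment over 20168 genes), without a replicate term. DESeq2 1.42.0, the tool of the study's methods, served as an alternative. Normalized counts were scaled from each library's effective size to the mean of the 6 effective sizes. The pairwise ratios to *Adipoq* used raw counts. The scripts were tested on simulated data. The 10 genes and the gene lists were chosen with earlier results of these data known. Named in each adipocyte list were the 3 genes with the smallest p and the 3 with the highest TPM, and others only where the text says so or as paralogs. *Lepr*, *Cidea* and *Dio2* were also named after their values were seen. Each library is from 1 mouse as labelled, and p-values measure the spread between these mice. The alternatives are given at the end.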

Additional observations from a re-analysis of the deposited data

How the results depend on the processing

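The count of genes called, 14, was 152 with DESeq2, 22 with scaling to total counts, 210 with no filter on low counts, 35 (0.174%) with the replicate block (the number in the titles as a term) and 9 with only the mice numbered 47347. With the other 5 settings (RLE size factors, at least 10 counts in every library, library sizes without the muscle or without the adipocyte lists, no fold threshold) it was 12 to 21. It ranged from 2 to 36 when 1 library was left out: 2 without WT1, WT2 or WT3, 36 without DKO1, 33 without DKO2 and 4 without DKO3. Of the 9 adipocyte genes, 2 (*Retn* and *Cfd*) were called with DESeq2 and 2 with no filter, and 0 under the other settings, 0 to 0 with a library left out. Their median log2 fold change, 0.23, was 0.17 with the replicate block, -0.04 with only the mice numbered 47347 and -0.29 to 0.45 with a library left out. With only the mice numbered 47347, *Adipoq* was -0.10 and *Plin1* -0.04. With a library left out, the log2 fold change ranged from 0.84 to 1.67 for *Retn*, 0.59 to 1.40 for *Cfd*, -1.21 to -0.42 for *Lep*, -0.38 to 0.45 for *Adipoq*, -0.29 to 0.18 for *Fabp4*, -0.29 to 0.52 for *Plin1*, -0.41 to 0.11 for *Lpl*, -0.24 to 0.67 for *Car3* and -0.05 to 0.41 for *Cidec*. The sign turned without WT2 for *Adipoq* (-0.04), without DKO1 for *Adipoq* (-0.38), *Plin1* (-0.29), *Car3* (-0.24) and *Cidec* (-0.05), without WT3 for *Fabp4* (0.18) and *Lpl* (0.11), without DKO2 for *Fabp4* (0.05) and *Lpl* (0.09), and without DKO3 for *Fabp4* (0.11) and *Lpl* (0.06). The cause of these shifts was not tested. The replicate block changed no call of the 9 genes (*Retn* 1.30, edgeR adjusted p 0.11; *Lep* -0.77, 0.136), but brought *Lep* under an unadjusted p of 0.05, 3 of 9 in place of 2. The deviations of same-numbered mice of opposite genotype correlated at -0.047 to 0.306 over 16227 genes. Those of differently numbered mice of opposite genotype correlated at -0.225 to -0.129, below every same-numbered pair of opposite genotype. Such deviations sum to 0 within a genotype, so these values are tied to each other. They largely restate 1 pair, WT3 and DKO1, at 0.306, and cannot show that mice of one number varied more alike. The main test left the number out, so the replicate block stands beside it. Without DKO1 the list medians of LPL partners (0.19) and brown fat (0.05) turned to -0.08 and -0.24. The list values without DKO1 and the ratios to *Adipoq*, *Plin1* and *Cidec* were chosen after seeing the data. Depth limits *Ucp1* most, and to a lesser degree *Retn* in WT.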
